A study of Mus musculus with 9 samples.

Results

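The basal and squamous keratins are 10 mouse keratin genes, namely Krt5, Krt14, Krt15, Krt17, Krt6a, Krt6b, Krt16, Krt13, Krt4 and Krt1. They were taken as every non-control probe set whose only annotated gene symbol is one of these names, which gave 18 of 45037 probe sets, or 10 of 18193 genes. The genes were measured in 3 cell lines with 3 arrays each. The tumour line is MDA-F471; its source was a lung adenocarcinoma that arose in a female mouse without Gprc5a, 16 months after intraperitoneal NNK, a tobacco carcinogen. The knockout line is non-tumorigenic and comes from tracheal cells of a Gprc5a-knockout mouse aged 3 weeks. The wild-type line is its counterpart from a mouse of the same age with intact Gprc5a. The sample titles call the cells of both of these lines normal lung epithelial cells. All 3 lines come from the strain background C57/BL6 x sv129, and both the tumour and the knockout line lack Gprc5a. Each group is 1 line. The tumour line differs from the other lines in organ, mouse age, carcinogen exposure and possible handling batch, and from the wild-type line in Gprc5a as well. None of these can be separated from its being a tumour, and they cannot be told apart. The labels do not say whether replicates were separate cultures, so a p-value covers the spread between arrays of a line, which may be technical, and no more.

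Keratins are the intermediate filament proteins of epithelia. They assemble as pairs of a type I and a type II chain, and the pair in use changes with cell type and differentiation. Krt5 (type II) with Krt14 (type I) builds the filaments of basal cells, which are the stem cells of the tracheal epithelium, and Krt15 is a further basal type I chain. Krt6a and Krt6b with Krt16 and Krt17 are induced in wounded and activated stratified epithelium. Krt4 with Krt13 marks the upper layers of mucosal squamous epithelium, and Krt1, which pairs with Krt10, marks the differentiating layers of the epidermis.

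Gprc5a itself averaged 7.02 ± 0.06 log2 in tumour, 7.16 ± 0.06 in knockout and 8.57 ± 0.22 in wild-type arrays (SD, n = 3 each). It was called lower than wild-type in the tumour line (-1.54 ± 0.11) and in the knockout line (-1.41 ± 0.11). Array medians lay between 6.28 and 6.34 log2, and Pearson's r between arrays of 1 line was 0.990 to 0.996. A detection floor of 5.15 log2 was set at the 95th percentile of 27 Bacillus subtilis control probe sets, whose highest value was 5.96. The general epithelial genes Epcam (12.03, 11.73 and 11.74 in the tumour, knockout and wild-type lines) and Cdh1 (11.92, 12.63 and 12.88) were bright in every line. In bulk RNA, fewer cells of a type and less RNA per cell cannot be told apart, so markers of other cell types were measured as well. The summed linear signal of 6 leukocyte markers was 813 to 888 in the tumour line, 837 to 1056 in the knockout line and 859 to 925 in the wild-type line, with Ptprc under the floor on every array. The sum of 9 fibroblast markers was 539 to 548, 524 to 550 and 510 to 569 in the same order, with Col3a1 under the floor on every array. The sum of 7 alveolar type II markers was 1311 to 1676, 1304 to 1402 and 1239 to 1325. Its brightest gene was Abca3 (9.52, 9.62 and 9.64 log2). Sftpc, Sftpa1 and Nkx2-1 averaged under the highest control value in every line, and Abca3, Sftpb, Sftpd and Napsa above it. The sum of 7 secretory markers was 467 to 504, 2236 to 4394 and 2338 to 2675, with Scgb1a1 and Bpifa1 under the floor on every array. Most of this sum in the knockout and wild-type lines was Cyp2f2. It averaged 5.77 log2 in the tumour, 11.32 in the knockout and 11.07 in the wild-type line. The sum of 6 ciliated markers, most of it Tubb4b, was 8946 to 9348, 3294 to 3420 and 1988 to 2356, with Ccdc39 under the floor on every array. The part of the secretory and ciliated sums in the keratin differences was not tested.

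RefSeq start-site sequence (GRCm38.p6) is held for 3 of the 10 genes, Krt5, Krt13 and Krt14. The start sites of the windows of Krt5 (chr15:101712856-101713155, minus strand) and Krt13 (chr11:100121517-100121816, minus strand) are the annotated 5′ ends of the genes. They are shown because both genes fell in the tumour line, while between knockout and wild-type lines Krt5 differed by -0.07 and Krt13 by -0.92 log2. The Krt14 window belongs to a start site 1480 bases inside the gene and a second Krt13 window to one 989 bases inside, and these are not shown. Each window runs 5′ to 3′ from 250 bases before the start site to 50 after it, with motif matches in capitals.
Krt5: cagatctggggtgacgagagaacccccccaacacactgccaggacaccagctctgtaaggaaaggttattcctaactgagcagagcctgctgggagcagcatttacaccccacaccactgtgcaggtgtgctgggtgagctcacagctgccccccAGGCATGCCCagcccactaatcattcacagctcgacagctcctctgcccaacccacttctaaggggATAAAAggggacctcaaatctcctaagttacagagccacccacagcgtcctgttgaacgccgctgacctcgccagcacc
Krt13: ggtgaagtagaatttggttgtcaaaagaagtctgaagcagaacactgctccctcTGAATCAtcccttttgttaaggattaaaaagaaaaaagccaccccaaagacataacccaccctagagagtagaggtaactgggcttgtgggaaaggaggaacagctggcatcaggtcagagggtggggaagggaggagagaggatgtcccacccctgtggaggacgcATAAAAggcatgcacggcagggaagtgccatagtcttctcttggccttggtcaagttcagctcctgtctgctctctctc
The motifs were searched on both strands and chosen with the windows in view. The TATA-like ATAAAA begins at position -29 from the start site in both windows, and 18.5% of 32851 mouse start-site windows of this length hold it somewhere. A half-site of the p53 family, to which the basal-cell factor Trp63 belongs, begins at position -95 of Krt5 (8.36% of windows hold one). The AP-1 pattern was searched as TGANTCA, with any middle base (7.81% of windows hold it). It matched as TGAATCA at position -196 of Krt13. The second Krt13 window holds it as TGACTCA at -183 and -34 and has no ATAAAA. The GC box GGGCGG, found in 35.7% of windows, is in neither. A match describes the letters only.

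The tumour line held far less signal of these keratins than either tracheal line, Krt1 against the knockout line excepted. By the brightest probe set of each gene, 10 of 10 were called lower than in the wild-type line and 9 of 10 lower than in the knockout line, and 0 were called higher in either comparison. A probe set was called when limma's Benjamini-Hochberg adjusted p over all 45037 probe sets was under 0.05 and the difference was at least 2-fold. Among all probe sets, 13.1% were called for the first comparison (6.42% lower and 6.69% higher) and 11.4% for the second (5.18% lower and 6.19% higher). The median log2 difference of the 10 genes was -6.88 against the wild-type line and -6.61 against the knockout line, where the medians over all probe sets were 0.0038 and -0.013. The tumour arrays of 10 of 10 genes lay under those of either other line without overlap. Over all probe sets, arrays did not overlap for 47.6% against the wild-type line (23.1% with the tumour lower) and 46.4% against the knockout line (23.4%). Both comparisons share the tumour arrays.

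**Figure D1:**
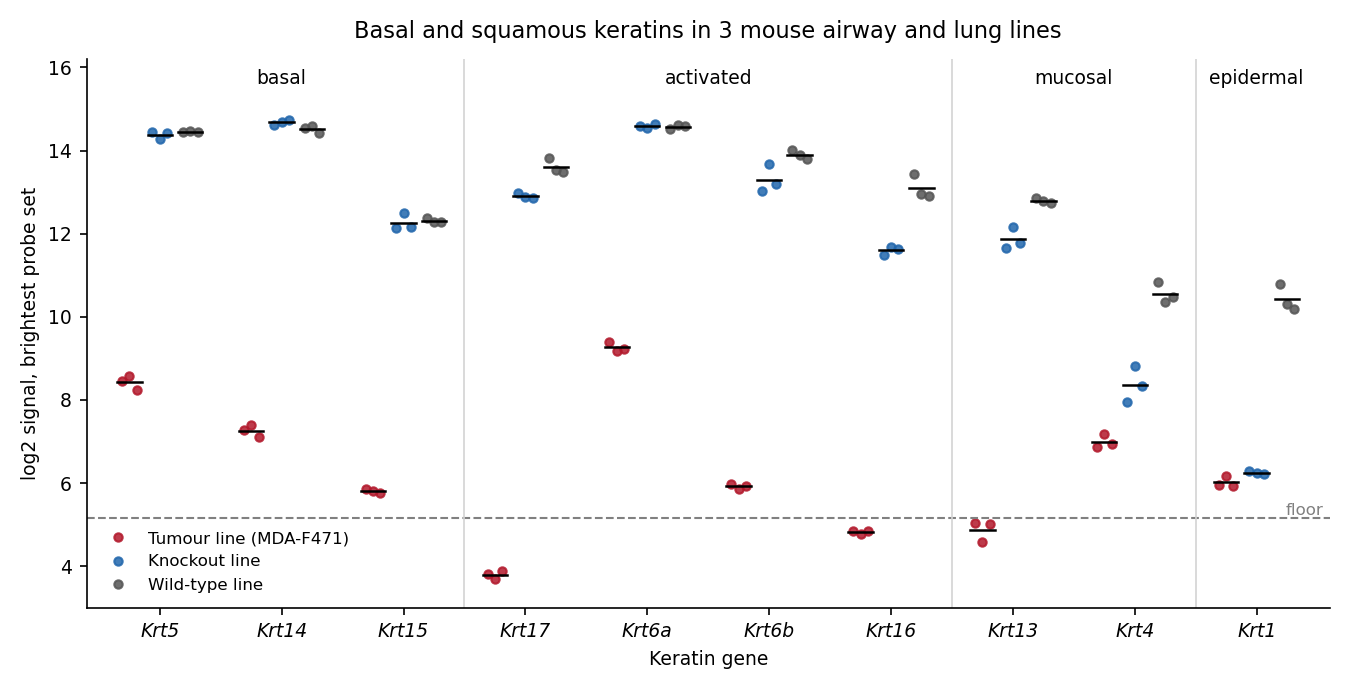
Log2 signal of the brightest probe set of each of the 10 keratins on every array. Points are the 3 arrays of each line, black bars their means, and the dashed line the detection floor at 5.15 log2. Krt17, Krt16 and Krt13 lie under the floor on all 3 tumour arrays, while Krt1 is high in the wild-type line only.

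Krt5, the type II chain of basal cells, read 8.47, 8.58 and 8.24 log2 on the tumour arrays, against 14.45, 14.28 and 14.41 on the knockout arrays and 14.45, 14.47 and 14.45 on the wild-type arrays. The tumour arrays stood apart and the other lines overlapped. The fall was 62.1-fold against the knockout line (-5.96 ± 0.10 SE log2) and 65.3-fold against the wild-type line (-6.03 ± 0.10, limma adjusted p = 1.27e-12). Krt5 came as close as 0.39 log2 to the array maximum in the knockout line and 0.14 in the wild-type line. Krt14, its type I partner, read 7.27, 7.39 and 7.10 in the tumour line, against 14.61, 14.68 and 14.73 in the knockout line and 14.54, 14.59 and 14.42 in the wild-type line. Its signal was 171-fold lower than in the knockout line and 154-fold lower than in the wild-type line, where the smallest gap to the array maximum was 0.077 log2 in the knockout and 0.013 in the wild-type line. A signal limit at the array maximum would make such folds too small, which was not tested for Krt5, Krt14 or Krt6a. Krt15 read 5.87, 5.81 and 5.77 in the tumour line, against 12.14, 12.50 and 12.16 in the knockout line and 12.37, 12.28 and 12.27 in the wild-type line. Its tumour level lay between the floor and the highest control value, and the falls were 87.4-fold against the knockout line and 89.9-fold against the wild-type line.

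Krt17, a type I chain of activated epithelium, read 3.80, 3.69 and 3.89 on the tumour arrays, all under the floor, against 12.97, 12.88 and 12.86 in the knockout line and 13.82, 13.53 and 13.49 in the wild-type line. The tumour line was at least 216-fold lower than the knockout line and at least 354-fold lower than the wild-type line (signal difference -9.82 ± 0.10, limma adjusted p = 1.80e-13). Krt16, a type I chain of wound-edge epithelium, read 4.85, 4.78 and 4.85 in the tumour line, against 11.49, 11.68 and 11.64 in the knockout line and 13.44, 12.94 and 12.92 in the wild-type line. It too was under the floor in the tumour line, at least 87.7-fold lower than in the knockout line and at least 248-fold lower than in the wild-type line. With the highest control value as the floor the bounds were 123-fold and 201-fold for Krt17 and 49.96-fold and 141-fold for Krt16.

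Krt6a, a type II chain of activated epithelium, read 9.40, 9.18 and 9.22 in the tumour line, against 14.59, 14.54 and 14.64 in the knockout line and 14.53, 14.60 and 14.59 in the wild-type line. It was 39.9-fold lower than in the knockout line and 39.5-fold lower than in the wild-type line, with all 3 tumour arrays above the highest control. It was the brightest probe set of wild-type replicates 2 and 3, and a second Krt6a probe set (14.59) was the brightest of wild-type replicate 1. In the knockout line it came within 0.17 log2 of the maximum. Krt6b read 5.99, 5.87 and 5.93 in the tumour line, against 13.02, 13.67 and 13.20 in the knockout line and 14.02, 13.89 and 13.79 in the wild-type line. Its fall was 166-fold against the knockout line and 251-fold against the wild-type line, and its tumour level straddled the highest control value of 5.96. Krt6a and Krt6b are closely related neighbours, and how far each probe set reads the other's RNA is unknown. The same is unknown among the probe sets of Krt14, Krt16 and Krt17.

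Krt13, the type I chain of mucosal squamous cells, read 5.04, 4.59 and 5.02 in the tumour line, against 11.66, 12.16 and 11.78 in the knockout line and 12.85, 12.78 and 12.73 in the wild-type line. It was at least 105-fold lower than in the knockout line and at least 199-fold lower than in the wild-type line. With the highest control value as the floor these bounds were 59.9-fold and 113-fold. Its type II partner Krt4 read 6.86, 7.19 and 6.95 in the tumour line, against 7.94, 8.82 and 8.34 in the knockout line and 10.83, 10.36 and 10.48 in the wild-type line. Here all 3 lines were separate, with falls of 2.58-fold against the knockout line (-1.37 ± 0.20, adjusted p = 0.000136) and 11.8-fold against the wild-type line (-3.56 ± 0.20). Krt1 read 5.96, 6.17 and 5.94 in the tumour line, against 6.29, 6.25 and 6.22 in the knockout line and 10.78, 10.31 and 10.20 in the wild-type line. Its fall against the wild-type line was 21.3-fold, while the tumour to knockout difference of -0.23 ± 0.14 was not called (limma adjusted p = 0.240, 95% interval -0.53 to 0.07).

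The tumour line therefore held 4 of the 10 keratins above the highest control value on all 3 arrays, namely Krt5, Krt14, Krt6a and Krt4. A further 3 (Krt17, Krt16 and Krt13) were under the floor on all 3 arrays, and Krt15, Krt6b and Krt1 lay between. In the knockout and wild-type lines 10 of 10 were above the highest control value on every array. A value above the highest control does not show that an RNA was present. Gprc5a averaged 7.02 log2 (tumour) and 7.16 (knockout), although both lines lack it. Krt1 on the knockout arrays (6.22 to 6.29) read below these averages. Tumour Krt4 (6.86 to 7.19) and Krt14 (7.10 to 7.39) lay near them. A background part in these keratin readings, which would make their folds too small, was not tested.

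The comparison of the knockout with the wild-type line sets 1 non-tumorigenic tracheal line without Gprc5a beside 1 tracheal line with it. The genotype and any other difference between these lines cannot be told apart. Krt1, Krt4 and Krt16 were lower in the knockout line, while the 3 basal keratins differed by at most 0.16 log2 on their brightest probe sets. Of the 10 genes 3 were called lower and 0 higher, where 3.71% of all probe sets were called, 2.11% lower and 1.61% higher. With 1 probe set per gene, 888 of 18193 genes were called, 543 lower and 345 higher. The median difference of the 10 was -0.66, beside 0.011 over all probe sets. Krt1 fell to a mean of 6.25 ± 0.04 in the knockout line, against 10.43 ± 0.31 in the wild-type line (SD, n = 3 each), a fall of 18.1-fold (-4.18 ± 0.14 SE, limma adjusted p = 2.43e-09). Krt4 fell to 8.37 ± 0.44, against 10.56 ± 0.25 in the wild-type line, or 4.55-fold (-2.19 ± 0.20, adjusted p = 9.34e-06). Krt16 fell to 11.60 ± 0.10, against 13.10 ± 0.29 in the wild-type line, or 2.82-fold (-1.50 ± 0.13, adjusted p = 7.56e-06).

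Another 3 genes were lower by less than 2-fold with an adjusted p under the threshold, and so were not called. Krt13 differed by -0.92 ± 0.15 (adjusted p = 0.000877), Krt17 by -0.71 ± 0.10 (adjusted p = 0.000437) and Krt6b by -0.60 ± 0.14 (adjusted p = 0.0125). For these and the 3 called genes the knockout arrays lay under the wild-type arrays without overlap. Arrays of Krt14 did not overlap either, with the knockout higher, which makes 7 of 10 genes where 31.5% of all probe sets did not overlap (16.3% with the knockout lower). Krt13 was called (-1.07, adjusted p = 0.000503) when knockout replicate 2, its highest knockout array, was left out, and also as the mean of its probe sets (-1.12).

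The remaining 4 genes showed no difference past the threshold. The log2 difference was -0.07 for Krt5 (95% interval -0.29 to 0.15), -0.04 for Krt15 (-0.27 to 0.19), 0.02 for Krt6a (-0.18 to 0.21) and 0.16 for Krt14 (-0.05 to 0.37). Krt5, Krt14 and Krt6a lay close to the array maximum in both tracheal lines, as given above, and the part of a signal limit in these 3 small differences was not tested. The sign for Krt6a turned with quantile normalization (-0.13) and that for Krt15 without knockout replicate 1 (0.020). The dimmest Krt6a probe set, at least 3.05 log2 under the array maximum in the knockout line and 2.70 in the wild-type line, averaged 11.78 in the knockout and 11.83 in the wild-type line and differed by -0.05. The dimmest Krt14 probe set read 9.83, 9.29 and 9.45 in the knockout line, against 8.99, 8.15 and 8.96 in the wild-type line. It was higher in the knockout line by 0.82 ± 0.21 (adjusted p = 0.0172), under 2-fold, with no overlap between the arrays.

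**Figure D2:**
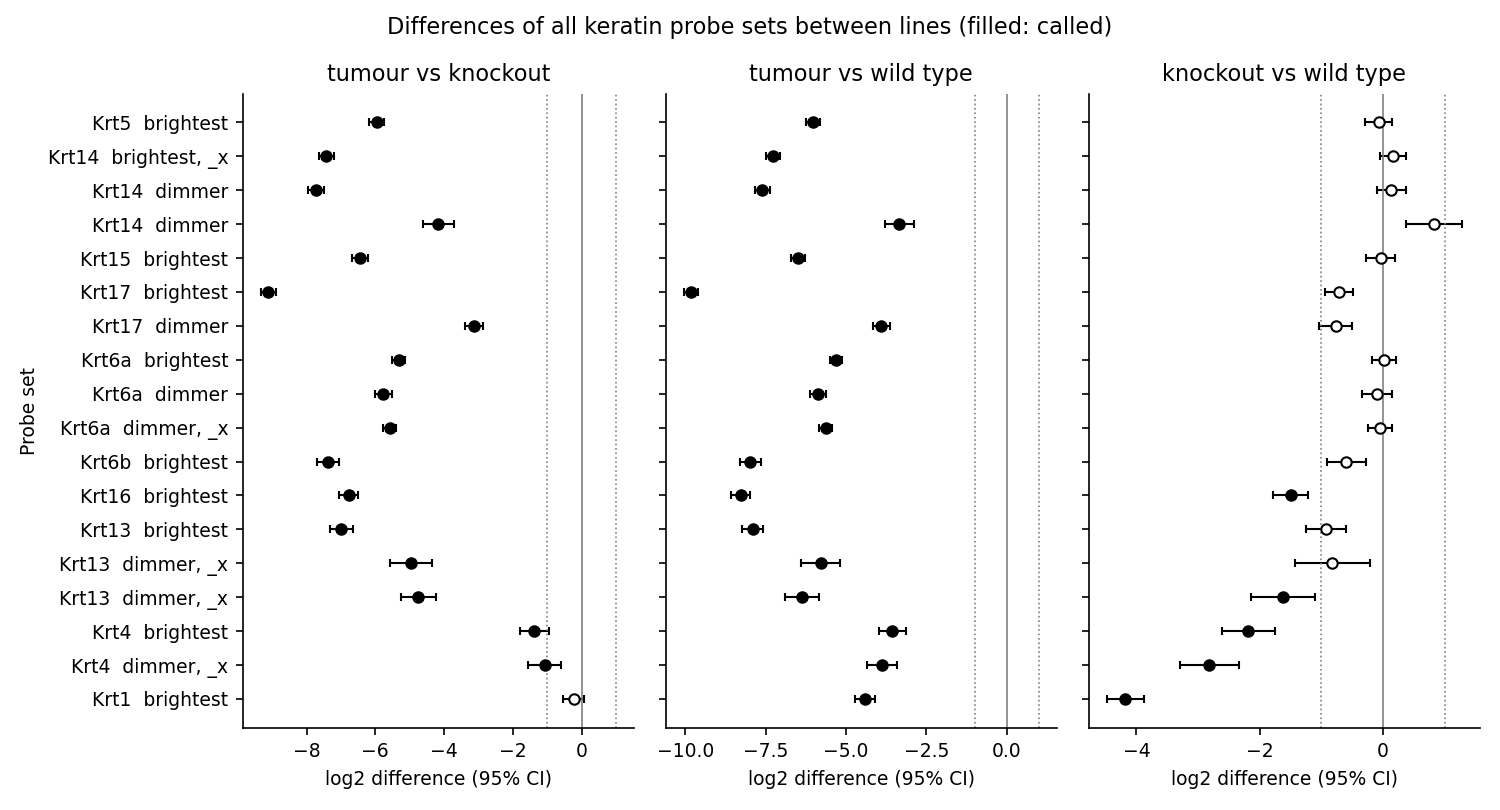
Log2 differences of all 18 keratin probe sets in 3 comparisons, with 95% intervals from limma; filled points were called and dotted lines mark 2-fold. The tumour line had all 18 called lower than wild-type and 17 lower than knockout, and the knockout line had 5 lower than wild-type.

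Probe sets of 1 gene moved the same way in the tumour comparisons, but not by the same amount. Of 18 probe sets, the tumour comparisons called 18 lower against the wild-type and 17 against the knockout line, and the knockout line had 5 lower than the wild-type. The 3 Krt14 probe sets differed between tumour and knockout lines by -7.42, -7.73 and -4.17, and the 2 Krt17 probe sets by -9.11 and -3.14. The 3 Krt6a probe sets stayed close together, at -5.32, -5.77 and -5.58. The smaller differences belonged to the dimmer probe sets of Krt14 and Krt17, whose tumour levels of 5.36 and 4.33 were near or under the floor. Between knockout and wild-type lines the 3 Krt13 probe sets gave -0.92, -0.82 and -1.63, and only the last was called. Both Krt4 probe sets were called there, at -2.19 and -2.81. A probe set annotated to both Krt17 and Krt14, which was not a member, read 6.69, 6.81 and 6.76 in the tumour, knockout and wild-type lines and was not called in any comparison.

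The balance within keratin pairs was measured as the type II minus type I log2 signal of the brightest probe sets on each array, which compares how far each changed and not their levels. Against the knockout line this balance was higher by 5.62 for Krt4 and Krt13, 1.74 for Krt6b and Krt17, 1.47 for Krt5 and Krt14, 1.46 for Krt6a and Krt16, and 0.49 for Krt5 and Krt15. The arrays did not overlap in any of the 5 pairs. Each exact two-sided permutation p was 0.1, the smallest that 3 against 3 arrays allow (0.115 after Benjamini-Hochberg adjustment over 15 tests), so none can pass 0.05. Krt17, Krt16 and Krt13 were under the floor in the tumour line. Krt5, Krt14 and Krt6a were near the array maximum in the tracheal lines. Which partner fell further is therefore not established for the pairs that hold these genes, except by signal for Krt4 and Krt13. The Krt13 signal fell at least 59.9-fold against the knockout and 113-fold against the wild-type line, with the highest control value as the floor. The Krt4 signal fell 2.58-fold and 11.8-fold. A background part in the tumour Krt4 reading, which would make its falls too small, was not tested. With the highest control value as the floor, the Krt17 bounds (123-fold against the knockout and 201-fold against the wild-type line) were under the Krt6b falls (166-fold and 251-fold). With the 5.15 floor they were above them (216-fold and 354-fold), so this order depended on the floor. The tumour Krt6b mean of 5.93 was itself under the highest control value. With each gene's probe sets averaged, the Krt6b and Krt17 balance turned round, to -1.25 against the knockout and -1.11 against the wild-type line. The Krt5 and Krt14 balance then differed by 0.48 against the knockout line and by 0.0402 against the wild-type line, beside 1.24 on the brightest probe sets.

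The same balance was compared between knockout and wild-type lines. The Krt6a and Krt16 balance was 2.99 ± 0.12 in the knockout line and 1.47 ± 0.33 in the wild-type line (SD, n = 3 each), a difference of 1.51. The Krt4 and Krt13 balance was -3.50 ± 0.20 in the knockout line and -2.23 ± 0.20 in the wild-type line, a difference of -1.27. The exact permutation p was 0.1 for both, with no overlap of arrays. The Krt5 and Krt15 balance overlapped (difference -0.03, exact permutation p = 1), as did that of Krt6b and Krt17 (0.11, exact p = 0.8). Krt5 and Krt14 differed by -0.23 (exact p = 0.1). Krt10, the partner of Krt1 and named here after its values were seen, averaged 7.15 in tumour, 7.51 in knockout and 8.36 in wild-type arrays. Its knockout to wild-type difference of -0.85 ± 0.11 was not called, beside -4.18 for Krt1.

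**Figure D3:**
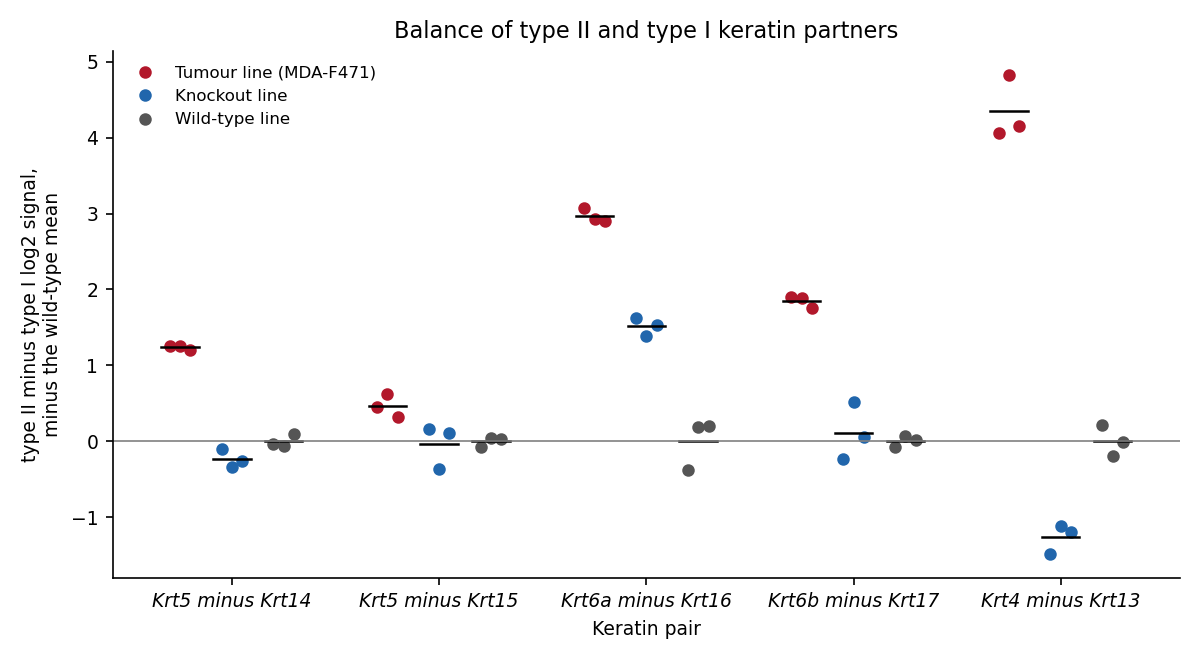
Type II minus type I log2 signal on each array for 5 keratin pairs, shown relative to the wild-type mean of the pair; points are arrays and bars means. The Krt4 and Krt13 balance is 4.35 above the wild-type mean in the tumour line and 1.27 below it in the knockout line.

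The type I members lie on chromosome 11 and the type II members on chromosome 15, in 2 clusters that hold most keratin genes. Among measured keratins in RefSeq order, Krt13, Krt15, Krt19, Krt14, Krt16 and Krt17 follow each other on chromosome 11. For tumour against knockout the 5 members there were called lower, while Krt19, a keratin of simple epithelia that lies between Krt15 and Krt14, was called higher (6.74 ± 0.13). Of the 19 other measured keratins of this chromosome, 3 were called higher, 0 lower and 16 not. On chromosome 15, Krt6b, Krt6a and Krt5 are neighbours and all fell, with no call for Krt75 and Krt71 on either side (-0.08 and -0.01). Of the 19 other measured keratins there, 3 were called higher, 1 lower and 15 not. In the knockout line Krt76 (-2.97 ± 0.21) and Krt78 (-2.09 ± 0.12), which lie near Krt1 and Krt4 in this order, were lower than in the wild-type line as well. Krt2 (-0.09), Krt77 (-0.0081) and Krt79 (-0.06), which lie beside or between them, were not called.

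**Figure D4:**
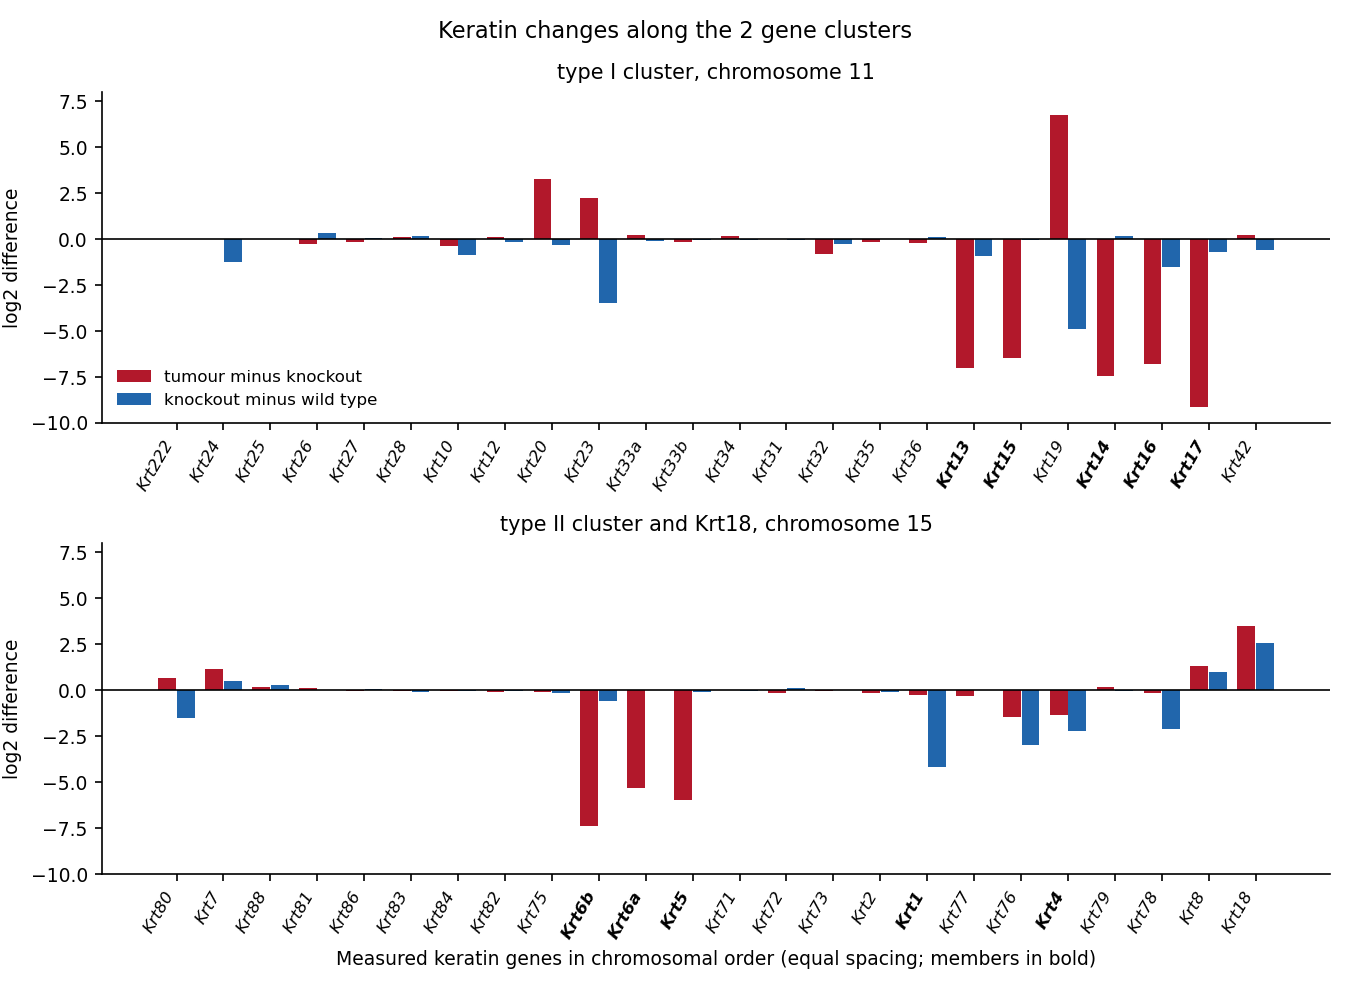
Log2 differences of all measured keratins in chromosomal order, with tumour minus knockout in red and knockout minus wild-type in blue; members are in bold and spacing is not to genomic scale. Members of both clusters fell between tumour and knockout lines except Krt1 (-0.23, not called), while Krt19 at 6.74 and Krt18 at 3.50 were higher.

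Simple epithelial keratins form the filaments of glandular and single-layered epithelia. The 7 keratins listed as such here, Krt80 among them, went mostly the other way in the tumour line. Against the knockout line 6 of 7 were called higher and 0 lower (median 2.25), among them Krt19, Krt18 (3.50 ± 0.14), Krt20 (3.25 ± 0.14) and Krt23 (2.25 ± 0.14). Against the wild-type line 5 were higher and 1 lower (median 1.83), with Krt18 at 6.05 ± 0.14, Krt8 at 2.31 ± 0.10 and Krt19 at 1.83 ± 0.13. The lower gene was Krt23 (-1.25 ± 0.14). Krt19 averaged 12.05 log2 in tumour, 5.32 in knockout (near the floor of 5.15) and 10.22 in wild-type arrays. Krt23 averaged 8.90, 6.65 and 10.15 in the same order. In the knockout line 1 was higher than in the wild-type line, Krt18 (2.55 ± 0.14), and 3 were lower, Krt19 (-4.90 ± 0.13), Krt23 (-3.50 ± 0.14) and Krt80 (-1.51 ± 0.13). Of 30 other measured epidermal and hair keratins limma called 0 higher in each comparison, with an unadjusted p under 0.05 and a higher value for 0, 1 and 1 (tumour against knockout, tumour against wild-type, knockout against wild-type). Against the knockout line 1 was lower in the tumour line (Krt76, -1.47), and against the wild-type line 5 were (Krt76 at -4.44, Krt78 at -2.23, Krt24 at -1.24 and Krt10 at -1.22 among them). For knockout against wild-type 3 were lower, Krt76, Krt78 and Krt24. The medians of these 30 were -0.05, -0.08 and -0.04 in the same order of comparisons.

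Proteins that anchor or bundle keratin filaments were lower in the tumour line as well. Of 16 measured, 9 were called lower and 1 higher than in the knockout line, and 13 lower and 2 higher than in the wild-type line (medians -1.22 and -1.73). The desmosomal cadherin Dsc3 was at least 22.9-fold lower than in the knockout line, the hemidesmosomal plakin Dst fell by 5.62 log2, the cadherin Dsc2 by 4.44 and the plakophilin Pkp1 by 3.43. For knockout against wild-type 4 were lower and 1 higher (median -0.25). The epidermal proteins Hrnr and Flg, which bind or bundle keratins in the outer layers, were at least 6.53-fold and at least 3.50-fold lower in the knockout line, and Dsc3 fell by 2.52. With the highest control value as the floor the bounds were 3.72-fold for Hrnr and 1.99-fold for Flg, and 13.0-fold for Dsc3 in the tumour against the knockout line. The cadherin Dsg2 was higher in the knockout line, by 3.88 ± 0.10.

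Transcription factors of basal and stratified epithelium were lower in the tumour line, with 15 of 23 called lower and 0 higher in both tumour comparisons (medians -1.83 against the knockout and -2.39 against the wild-type line). Sox2, an airway stem cell factor, was at least 64.7-fold lower than in the knockout line, and Trp63, which activates Krt5 and Krt14 in stratified epithelia, at least 46.5-fold lower. The factor Pitx1 fell by 5.55 log2 and Bnc1, a zinc finger protein of basal keratinocytes, was at least 17.7-fold lower. Against the wild-type line Trp63 was at least 120-fold lower and Tfap2c, an AP-2 factor of the epidermis, at least 20.7-fold lower. With the highest control value as the floor, the bounds against the knockout line were 36.9-fold for Sox2, 26.5-fold for Trp63 and 10.1-fold for Bnc1, and those against the wild-type line 68.2-fold for Trp63 and 11.8-fold for Tfap2c. For knockout against wild-type 7 were lower and 2 higher (median -0.17). Grhl1 (-2.12 ± 0.20), Tfap2c (-1.96 ± 0.20), Grhl3 (-1.72 ± 0.13) and Foxn1 (-1.62 ± 0.14), factors of epidermal differentiation, were lower. Trp63 was lower by 1.36 on the log2 scale on its brightest probe set, a call that averaging its probe sets removed (-0.67). Sox2 was not called there (0.13 ± 0.08).

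The non-member genes most like each keratin were taken as those with the smallest Euclidean distance over the 9 arrays, after subtracting each probe set's own mean. This describes 1 pattern over 3 lines and carries no test. Nearest to Krt14 was Sox2 (distance 0.42), and nearest to Krt5 and to Krt15 was the small heat shock protein Hspb1 (0.48 and 0.61). The nearest gene to Krt17, Col17a1, a collagen of basal cell anchorage, was at 1.51. Krt6a lay nearest to the potassium channel Kcnj15 (0.30), and Krt6b to Dmkn, a secreted keratinocyte protein (0.55). Trp63 was the nearest gene to both Krt16 (0.84) and Krt13 (0.90). Krt4 lay nearest to Teddm3 (0.37), and Krt1 to Lce3f of the cornified envelope (0.49) and then to Hrnr (0.61). Among the members themselves, Krt6b and Krt13 were the closest pair (0.60), followed by Krt5 and Krt15 (0.83), and Krt1 was 2.54 from its nearest member, Krt4.

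Of the cell-type lists, fibroblast markers had 0 of 9 called by limma in each comparison, with an unadjusted p under 0.05 for 1 (tumour against knockout), 4 (tumour against wild-type) and 2 (knockout against wild-type). Among 6 leukocyte markers 1 call was made, for the macrophage gene Cd68, lower for tumour against wild-type (-1.11 ± 0.11). Among 7 secretory markers the cytochrome Cyp2f2 was lower in the tumour line, by 5.55 log2 against the knockout and by 5.30 against the wild-type line. Among 6 ciliated markers the tubulin Tubb4b was higher in the tumour line, by 1.56 and 2.25 (0.34 and 0.46, not called, when its probe sets were averaged). Against the knockout line 3 others had a lower value in the tumour line with an unadjusted limma p under 0.05, though not called. These were Rsph1 (-0.80), Ccdc39 (-0.78, under the floor) and Foxj1 (-0.20), named here after their values were seen. Against the wild-type line 0 had a lower value at that p. The knockout line had a higher value than the wild-type line for 4 of the 6 at that p, and a lower value for 0. Rsph1 averaged 6.41 in the tumour, 7.21 in the knockout and 6.38 in the wild-type line. Among 7 alveolar type II markers the collectin Sftpd was higher in the tumour line, by 1.38 and 1.81. Of 5 general epithelial genes, Cldn4 was higher (1.53 ± 0.32) and the splicing factor Esrp1 lower (-1.03 ± 0.13) for tumour against wild-type. The Esrp1 call was lost without wild-type replicate 3 (-0.98), tumour replicate 1 (-0.99) or tumour replicate 2 (-0.93). For knockout against wild-type limma called 0 of the 40 genes of these 6 lists, of which 14 had an unadjusted p under 0.05.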

How the data were processed

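The deposited values are log2 signals of 45101 probe sets on Affymetrix MG-430 2.0 arrays, 1 column per array; the log2 scale was read from the values, and how the authors corrected background, summarized probes and normalized is not stated in the labels or files used here. Per the labels, total RNA was turned into biotin-labelled cRNA. The values were used as deposited. Genes were assigned through the platform's annotation, in which 34945 non-control probe sets have 1 symbol, 932 several and 9160 none; a gene is represented by its brightest single-symbol probe set. One model over 9 arrays was fitted to 45037 non-control probe sets with limma 3.58.1 (R 4.3.3, 6 residual degrees of freedom, two-sided p-values) and tested on simulated data. Errors are limma's standard errors or SDs over 3 arrays; the number of arrays limits the precision.

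A fold is "at least" where the dimmer line was under the floor on all 3 arrays, and was computed against the floor. Named genes are the 10 members, Gprc5a, up to 4 called genes per list and comparison with the largest difference, and the 3 genes nearest each member (non-members, without predicted, Rik or Gm names). The 11 lists, the members, the floor and these rules were chosen with earlier results of these data known. Alternatives covered normalization, filtering, probe sets, variance prior, replicate block, thresholds and leaving out arrays. Pair balances were tested by exact permutation.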

Additional observations from a re-analysis of the deposited data

How the results depend on the processing

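The number of called keratins was 9 (tumour against knockout) and 10 (tumour against wild-type) under every alternative run, replicate block included. For knockout against wild-type it was 3, and 6 without a fold threshold or with a 1.5-fold one; leaving out 1 array gave 3 to 4. Of 540 recomputed differences of the 10 genes, 538 kept their side of the threshold and 2, both of Krt13, passed it. The sign turned in 6, all of knockout against wild-type and none of a called difference: Krt15 (-0.04) was 0.020 without knockout replicate 1 and 0.014 without knockout replicate 3, and Krt6a (0.016) was -0.04 with probe sets averaged, -0.13 with quantile normalization, -0.0080 without knockout replicate 3 and -0.0077 without wild-type replicate 1. Of 3765 differences of 70 other genes, 14 lost and 15 gained a call. The sign turned in 35, none of them of a called difference. Titles number replicates alike in each line. Deviations of same-numbered arrays correlated at -0.15 to 0.28, and differently numbered arrays were not compared, so this does not settle whether arrays were paired. The numbers were not taken as pairs. With a replicate block 5117, 5914 and 1673 probe sets were called, against 5119, 5908 and 1672 without. The order is tumour against knockout, tumour against wild-type and knockout against wild-type. Leaving out 1 array gave 5049 to 5324, 5790 to 6093 and 1665 to 1757. In the same order of comparisons, calls over all features were 15963, 17021 and 7684 with no fold threshold, 9950, 10892 and 4129 at 1.5-fold, 2578, 3012 and 888 with 1 probe set per gene, and 2112, 2530 and 743 when each gene's probe sets were averaged, where fewer features were tested. Averaging moved the pair balances of Krt5 and Krt14 to 0.48, 0.0402 and -0.44. Against the knockout and wild-type lines it moved the tumour balances of Krt6a and Krt16 to 1.22 and 2.67, Krt6b and Krt17 to -1.25 and -1.11, and Krt4 and Krt13 to 4.34 and 2.96. Dim probe sets, with less room to fall, enter that average. Leaving out 1 array, the balances ranged as follows. For tumour against knockout they were 1.41 to 1.53 (Krt5 and Krt14), 0.33 to 0.59 (Krt5 and Krt15), 1.39 to 1.52 (Krt6a and Krt16), 1.57 to 1.94 (Krt6b and Krt17) and 5.38 to 5.76 (Krt4 and Krt13). For tumour against wild-type they were 1.204 to 1.28, 0.38 to 0.53, 2.78 to 3.07, 1.81 to 1.90 and 4.11 to 4.495. For knockout against wild-type they were -0.30 to -0.18, -0.13 to 0.13, 1.32 to 1.61, -0.09 to 0.29 and -1.36 to -1.16.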

Other observations

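Knockout replicate 2 was the highest of the 3 knockout arrays for 5 of the 10 genes, namely Krt15, Krt6b, Krt16, Krt13 and Krt4, and the lowest for Krt5 and Krt6a. Krt76, chosen here after its values were seen, followed the same order, at 6.61, 7.71 and 7.33 on knockout replicates 1, 2 and 3. Wild-type replicate 1 was the highest of its line for 7 of the 10 genes, and wild-type replicate 3 the lowest for 7. The spread was smallest for Krt5 in the wild-type line (SD 0.01) and largest for Krt4 in the knockout line (SD 0.44).

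Other intermediate filaments were measured beside the keratins. Of 15 such genes, the nuclear lamin Lmnb1 was called higher in the tumour line, by 1.05 ± 0.09 against the knockout and 1.16 ± 0.09 against the wild-type line, and 0 were lower; the first was under 2-fold with quantile normalization (0.991) and without knockout replicate 2 (0.996). Vim, the filament protein of mesenchymal cells, averaged 6.99 in tumour, 6.02 in knockout and 6.16 in wild-type arrays. It was not called on its brightest probe set (0.96 ± 0.16 against the knockout line), but was called there when its probe sets were averaged (1.39) and without tumour replicate 3 (1.02). Between knockout and wild-type lines limma called 0 of the 15, of which 2 had an unadjusted p under 0.05.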
